A study of Cardamine hirsuta with 12 samples.

Results

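The regions described here are broad stretches of *Cardamine hirsuta* chromatin that were recovered with an anti-GFP antibody both from plants carrying tagged ChCUC1 and from plants without the tag. They were selected on the authors' peak calls: a region had to be a reproducible peak of the tagged plants on Chr1 to Chr8, be wider than 2000 bp, share at least 1 bp with a reproducible peak of the untagged plants, and have its midpoint outside the peak-dense stretch in the middle of each chromosome. Of the 15299 reproducible ChCUC1:V peaks, 2118 met this rule. Width in the ChCUC1:V list and presence in the untagged list are therefore properties of the choice and not results. The tagged plants (ChCUC1:V) carried ChCUC1 fused to Venus, a fluorescent protein derived from GFP, in a construct that the study names as driven by the upstream sequences of *ChCUC1* itself, and the untagged plants were Oxford (Ox), the reference strain. The sources used here do not give the number of independent transgenic lines, and the genotype label reads Oxford for all libraries, so the groups follow the sample titles. In both genotypes the material was about 20 g per replicate of seedlings without roots and mature leaves, grown on soil in short days and taken 14 days after germination, then held for 20 min in cold (4 °C) formaldehyde at 1%. The series holds 12 libraries in 4 groups of 3, and the peak lists of the 6 immunoprecipitated (IP) libraries were used, 3 for each genotype. The lists carry no gene names, so the labelled tissue could not be checked against marker genes.

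CUC1 belongs to the NAC transcription factors, plant proteins that bind short DNA motifs, and CUC genes are known for setting the boundaries between organs and for the formation of leaflets in divided leaves. A factor that binds such motifs usually gives narrow ChIP-seq peaks centred on its sites, whereas wide peaks arise where a peak caller joins neighbouring enriched windows into 1 interval. DNA that an antibody recovers from plants without the tag cannot have been brought down through the tagged protein, and untagged plants are used for that reason as a control. A region recovered in both genotypes can still hold sites of the tagged protein, and overlap alone does not tell these possibilities apart.

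The broad shared regions covered 8.27 Mb. Their median width was 3280 bp, with 25% of them under 2493 bp, 25% over 4669 bp and the widest at 15766 bp. Fold, the authors' enrichment of IP over pooled control on a linear scale, ranged from 1.60 to 4.33 with a median of 2.34. The −log10 p of the peaks ranged from 8.92 to 124 with a median of 30.5. The score of a reproducible list is a scaled irreproducible discovery rate (IDR), in which higher values mean better agreement of ranks between replicates, and 1716 regions (81.0%) had the highest score, 1000. For comparison, and as a description only because width and sharing defined the classes, the 2835 shared peaks of at most 2000 bp outside the stretches (narrow shared regions) had a median fold of 2.20, a median −log10 p of 25.1 and 60.1% at the highest score. The 1320 broad shared regions inside the stretches were close to those outside, with medians of 3175 bp, 2.31-fold and a −log10 p of 29.1. The 522 peaks over 2000 bp outside the stretches that met no Ox peak were narrower and weaker, with medians of 2666 bp, 2.06-fold and 20.5.

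The choice of 2000 bp cut through a continuous range of widths. The regions just inside it were Chr3:12963727-12965728 and Chr7:1732428-1734429, both 2002 bp wide with folds of 3.23 and 1.98, and Chr5:7543789-7545791, 2003 bp wide with a fold of 2.56. Just outside it were Chr4:3326899-3328898 of 2000 bp with a fold of 2.10 and, both of 1999 bp, Chr7:5393276-5395274 with 2.15 and Chr7:6103218-6105216 with 2.37. Fold thus overlapped between both sides of the threshold.

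The broad shared regions were found on all chromosomes, and with the chromosomes pooled they were denser toward the dense stretches. The side before the stretch on Chr4, by coordinate, went the other way, with 25.5 per Mb within 2 Mb of the stretch and 32.8 beyond. Chr4 held the most, with 355, and Chr1 and Chr2 the fewest, with 224 each. Per Mb outside the stretches, the number ran from 9.67 on Chr1 to 17.3 on Chr5, and the regions took up between 3.66% of that length on Chr1 and 7.18% on Chr5. Median width differed little between chromosomes, from 3160 bp on Chr2 to 3389 bp on Chr5, and median fold lay between 2.31 and 2.39. Within 1 Mb of a stretch there were 30.8 broad shared regions per Mb (492 regions), between 1 and 2 Mb there were 27.4 (439), between 2 and 4 Mb 20.5 (656), between 4 and 6 Mb 11.1 (356), and beyond 6 Mb 2.80 (175). The stretches were themselves drawn on peak density, so a high number at their edges follows in part from how they were set.

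Narrow shared regions followed a like course, from 39.1 per Mb within 1 Mb to 4.33 beyond 6 Mb, and their median distance from a stretch was 2.33 Mb against 2.34 Mb for the broad ones. Tagged-only peaks, those without an Ox counterpart, were spread more evenly, from 40.8 per Mb within 1 Mb to 21.4 beyond 6 Mb, with a median distance of 3.68 Mb. Within 2 Mb of a stretch lay 44.0% of the broad shared, 43.2% of the narrow shared and 28.4% of the tagged-only peaks. These are counts of called peaks in 1 list and carry no replicate error.

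**Figure D1:**
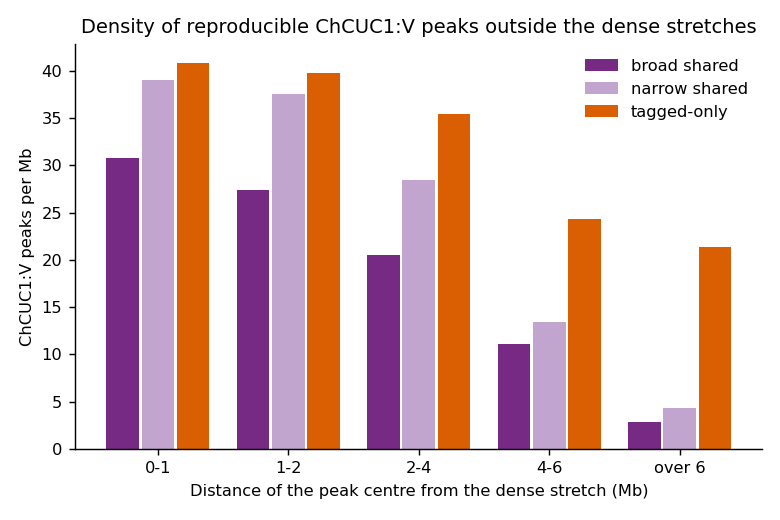
Reproducible ChCUC1:V peaks per Mb (vertical axis) by distance of the peak centre from the dense stretch of its chromosome in Mb (horizontal axis), for broad shared, narrow shared and tagged-only peaks. With the chromosomes pooled, the broad shared regions fell from 30.8 per Mb next to the stretches to 2.80 beyond 6 Mb, while tagged-only peaks were still at 21.4 there.

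The regions were also unequal between the 2 sides of a stretch. On Chr4 to Chr8 the side before the stretch, by coordinate, held most of them: 31.0 per Mb against 8.32 after it on Chr4, 28.3 against 4.36 on Chr5, 22.8 against 3.05 on Chr6, 27.1 against 5.60 on Chr7 and 19.7 against 4.83 on Chr8. On Chr1 and Chr3 the side after the stretch was the richer one, with 15.6 against 7 and 25.2 against 8.07 per Mb, and on Chr2 the sides were close, at 14.2 before and 13.02 after. On 6 of these 7 unequal chromosomes the richer side was the shorter one. The exception was Chr5, where the richer side was 9.50 Mb and the other 8.03 Mb long. Beyond 2 Mb from the stretch the sides still differed on these chromosomes, for example 32.8 against 4.05 per Mb on Chr4, and 18.9 against 0.918 on Chr6. Narrow shared regions were unequal in the same way, with 36.2 against 4.36 per Mb on Chr5. Tagged-only peaks were less so, between 21.6 and 40.3 per Mb over all 16 sides. The outermost 1 Mb of the 16 chromosome ends held 77 broad shared regions (4.81 per Mb), with none at 7 ends, 22 at the end of Chr3 and 21 at the start of Chr4.

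**Figure D2:**
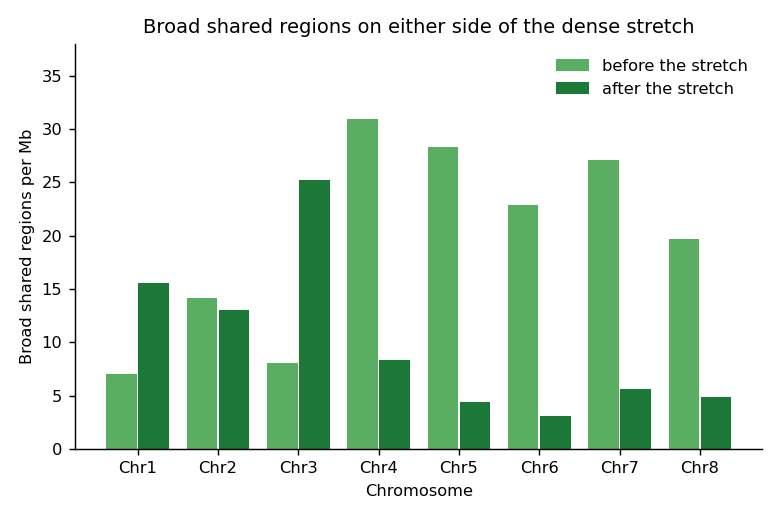
Broad shared regions per Mb (vertical axis) before and after the dense stretch of each chromosome (horizontal axis), by coordinate. The side before the stretch was the richer one on Chr4 to Chr8, the side after it on Chr1 and Chr3, and the sides of Chr2 were close, at 14.2 and 13.02 per Mb.

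Many of the regions had another close by. The gap to the next region of the same side had a median of 17742 bp, with 25% of the 2102 gaps under 4622 bp, and the smallest gap was 153 bp. When regions at most 10000 bp apart were joined, 1268 of the 2118 (59.9%) fell into 467 runs of 2 or more, and 850 stood alone. The longest runs held 10 regions each. One spanned Chr4:7918196-7985270, next to the stretch of that chromosome, with 37609 bp in regions of 1.94- to 2.60-fold. The other spanned Chr7:5290070-5354634, with 28685 bp in regions of 2.04- to 2.57-fold. The region with the most others within 50 kb, 12 of them, was Chr1:19570415-19573154, which was 2740 bp wide with a fold of 2.35, and the median over all regions was 3.

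Wider regions had higher median folds. The median fold was 2.26 in the 905 regions up to 3000 bp, 2.31 in the 481 of 3000 to 4000 bp, 2.39 in the 465 of 4000 to 6000 bp and 2.52 in the 164 of 6000 to 8000 bp. It was 2.90 in the 60 of 8000 to 10000 bp and 2.89 in the 43 wider ones. The median −log10 p went from 27.5 to 56.6 over the same classes. Spearman's rho between width and fold was 0.288 over the 2118 regions, which share the same pooled libraries, and single regions departed widely from the trend. The summit, the point of highest enrichment, lay in the central 50% of the region in 1066 regions (50.3%) and in the outermost 10% at either end in 212 (10.01%). In narrow shared regions the corresponding shares were 79.3% and 0.106%. Summits placed evenly along a region would also lie in its central 50% in 50% of cases, but more than 10.01% of them would lie in the outermost parts. In the widest region, of 15766 bp, the summit lay 15416 bp from the start.

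In the Ox list most of the regions were nearly covered. Reproducible Ox peaks covered on average 81.2% of a region (median 91.1%), with at least 90% covered in 1104 regions (52.1%) and less than 20% in 38 (1.79%). The overlap itself was part of the choice, whereas its extent was not. The Ox counterpart was a single peak in 1614 regions (76.2%), 2 peaks in 428 (20.2%), and 3 to 5 in the other 76. The share with more than 1 Ox peak was larger in wider regions, from 10.5% up to 3000 bp to 67.4% above 10000 bp. The highest Ox fold in a region had a median of 2.45 and the Ox −log10 p a median of 17.4. The folds of both lists were correlated across the regions (Spearman's rho 0.413), and so were the −log10 p values (0.512), as a description over regions that share their source libraries.

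The edges of the peaks were set beside each other where the match was unambiguous. In 1470 regions (69.4%) a single Ox peak met a single ChCUC1:V peak, and there the starts differed by a median of 100 bp and the ends by a median of 108 bp. The starts were within 250 bp of each other in 1008 of these (68.6%), the ends in 978 (66.5%) and both in 657 (44.7%). The Ox peak had a median of 0.942 of the ChCUC1:V width and was the wider in 419 (28.5%), although only the ChCUC1:V peak had been selected for width. In 206 (14.01%) it had less than 50% of the ChCUC1:V width. The summits of these 1470 pairs were apart by a median of 187 bp and within 250 bp in 812 (55.2%). Over all 2118 regions, the nearest Ox summit was 176 bp from the ChCUC1:V summit at the median. It was within 250 bp in 1200 regions (56.7%, Wilson 95% interval 54.5 to 58.8%, counting error only) and over 1000 bp away in 449 (21.2%, 19.5 to 23.0%). In narrow shared regions, which leave less room for a displaced summit, the median was 87 bp and 80.1% were within 250 bp.

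The regions with the most Ox peaks show the variety. Chr6:7886280-7890341, 4062 bp wide, and Chr7:5547859-5552825, 4967 bp wide, each met 5 Ox peaks, with 84.6% and 73.9% of their bases covered. Chr1:19385275-19394493, 9219 bp wide, was 1 of 16 regions that met 4, and was taken by chromosome and start. In these named regions the nearest Ox summit was 24, 52 and 168 bp from the ChCUC1:V summit. Several Ox peaks in a region leave less room for a distant nearest summit, so short distances were favoured by this pick.

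The single IP libraries made the reproducible lists, so their support is not independent of the choice. How they covered the regions was not fixed by it, but choosing on width in the ChCUC1:V list favours wide, unbroken peaks in the ChCUC1:V libraries. The libraries held between 21353 and 48631 peaks, so the comparison kept the best 21353 of each by −log10 p (reduced lists). Read depth is not given in the lists and is unknown. The reduced lists still differed in covered bases, with 16.3, 27.8 and 32.2 Mb in ChCUC1:V replicates 1, 2 and 3 and 25.7, 11.3 and 17.9 Mb in Ox replicates 1, 2 and 3. Run number 785 was shared by ChCUC1:V replicates 1 and 2 and Ox replicates 2 and 3, and the other libraries each had a run of their own.

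Nearly all of the regions were recovered in every library. With all deposited peaks, 2112 of 2118 (99.7%, Wilson 95% interval 99.4 to 99.9%) held a peak in each of the 6 libraries and the other 6 in 5 of them. With reduced lists, 1862 (87.9%, 86.5 to 89.2%) were met in all 6, 215 in 5 and 41 in fewer, and none in fewer than 3. Over all reproducible ChCUC1:V peaks these shares were 75.1% and 46.2%, over broad shared regions inside the stretches 100% and 86.4%, over narrow shared regions 88.1% and 53.2%, and over broad tagged-only peaks 91.0% and 45.4%. A wide region has more room for a chance overlap, and being met by peaks of both genotypes was close to what the rule asked for, so these shares and the next ones are given as a description, with no test. The share of regions met was 94.9, 99.8 and 100% in the ChCUC1:V libraries and 99.5, 94.5 and 97.2% in the Ox libraries. The means were 98.2 ± 2.91% and 97.1 ± 2.48% (SD, n = 3).

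The bases covered varied more than the share met. ChCUC1:V peaks covered 54.0, 85.1 and 90.5% of a region on average in replicates 1, 2 and 3, and Ox peaks covered 77.7, 36.1 and 58.3%. The means were 76.5 ± 19.7% and 57.4 ± 20.8% (SD, n = 3) and the groups overlapped, with Ox replicate 1 above ChCUC1:V replicate 1 (exact permutation test, two-sided, p = 0.3, where 3 against 3 libraries cannot go below 0.1). The order of the 6 libraries by this measure was their order by bases covered genome-wide. When each library was instead reduced to the same 11.3 Mb of peaks, a setting chosen after seeing the data, coverage was 41.3, 48.5 and 50.4% in ChCUC1:V and 45.9, 36.1 and 41.6% in Ox, and the difference between genotypes went from 19.2 to 5.53 percentage points. Within run 785 the difference was 22.4 points, with 2 libraries a genotype (exact permutation test, p = 0.667, smallest possible 0.333). The regions were chosen on width in the ChCUC1:V list, which favours ChCUC1:V coverage. Over the 1770 shared Ox peaks wider than 2000 bp outside the stretches, coverage was 57.3, 84.0 and 89.0% in ChCUC1:V. In Ox it was 84.5, 39.3 and 65.1%, and the difference was 13.8 points (exact permutation test, p = 0.6). The difference in broad regions exceeded that in narrow shared regions by 3.47 points, within the spread of the libraries (exact permutation test, p = 0.4).

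A region that was 1 interval in the reproducible list was often several peaks in a single library. A region met by a library held on average 1.99, 1.47 and 1.27 separate peaks in ChCUC1:V replicates 1, 2 and 3 against 1.73, 2.34 and 2.06 in the Ox libraries, in the same order. The means were 1.58 ± 0.370 and 2.04 ± 0.308 (SD, n = 3), and the groups overlapped (exact permutation test, p = 0.2). The difference was −0.468 here. Over the 1770 Ox peaks chosen on width in the Ox list it was −0.347 (exact permutation test, p = 0.2). The share of regions with at least 50% of their bases in 1 peak ran from 91.1% in ChCUC1:V replicate 3 to 6.42% in Ox replicate 2, the libraries with the most and the fewest bases covered. In narrow shared regions the means were 1.05 ± 0.0505 and 1.12 ± 0.0538 peaks, since a region of that size rarely held more than 1.

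**Figure D3:**
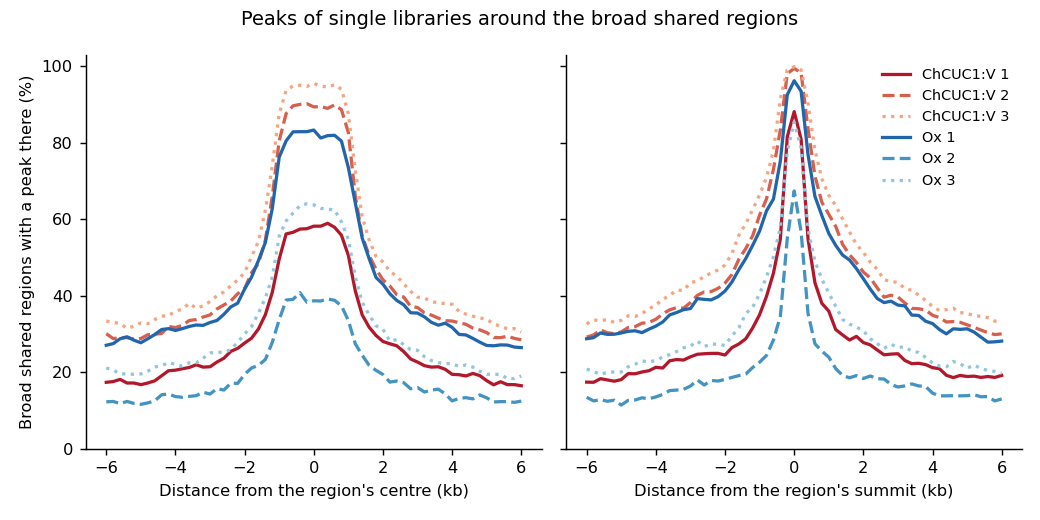
Share of the 2118 broad shared regions with a peak of the reduced list (vertical axis, %) at each distance from the region's centre (left) or its ChCUC1:V summit (right), in kb, with 1 line for each IP library. At the centre the lines lay between 38.7% (Ox replicate 2) and 95.5% (ChCUC1:V replicate 3) with a flat top, and at the summit between 67.4 and 99.9% with a sharp one.

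The average shape around the regions was alike in all libraries. Around the centre, each library's share of regions with a peak formed a flat top about as wide as the smallest regions, at 58.2, 89.3 and 95.5% in ChCUC1:V replicates 1, 2 and 3 and 83.3, 38.7 and 63.7% in Ox replicates 1, 2 and 3. Each region was over 2000 bp wide by the rule, so a top of about this width was favoured by the choice. At the ChCUC1:V summit the shares were higher in every library, at 88.1, 99.4 and 99.9% in ChCUC1:V and 96.2, 67.4 and 85.4% in Ox. This summit came from the ChCUC1:V list, which favours the libraries that made that list. Ox peaks thus also gathered at the point where the ChCUC1:V list had its summit.

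Fold in the regions did not separate the genotypes as groups. The median of the highest fold per region was 2.95, 2.38 and 2.25 in the ChCUC1:V libraries and 2.46, 3.09 and 2.66 in the Ox libraries, with means of 2.53 ± 0.371 and 2.74 ± 0.321 (SD, n = 3; exact permutation test, p = 0.5). The libraries with the fewest bases covered had the highest folds, and the part of this in the values was not tested. Broad regions stood above narrow shared ones by 0.176 in ChCUC1:V and 0.132 in Ox, means of 3 libraries, and these excesses differed by 0.0434 (exact permutation test, p = 0.3). The highest fold of a broad region is taken over more peaks and more bases, which favours a higher value there, and the part of this was not tested.

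The distance between the ChCUC1:V-list summit and the best peak of a library was the measure in which the libraries of the genotypes did not overlap. Its median was 173, 96 and 159 bp in ChCUC1:V replicates 1, 2 and 3 and 331, 530 and 462 bp for the Ox libraries. The means were 143 ± 41.0 and 441 ± 101 bp (SD, n = 3; exact permutation test, p = 0.1, the smallest possible). The reference summit came from the ChCUC1:V list, which favours the libraries that made that list. With the reference turned round, over the 1770 shared Ox peaks wider than 2000 bp outside the stretches, the medians were 344, 344 and 374 bp in ChCUC1:V and 149.5, 376.5 and 156 bp in Ox. The difference then had the opposite sign, 127 bp, and the groups overlapped (exact permutation test, p = 0.4). Of these 1770 Ox peaks 1604 met one of the 2118 regions, and ChCUC1:V peaks covered a median of 98.2% of them.

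**Figure D4:**
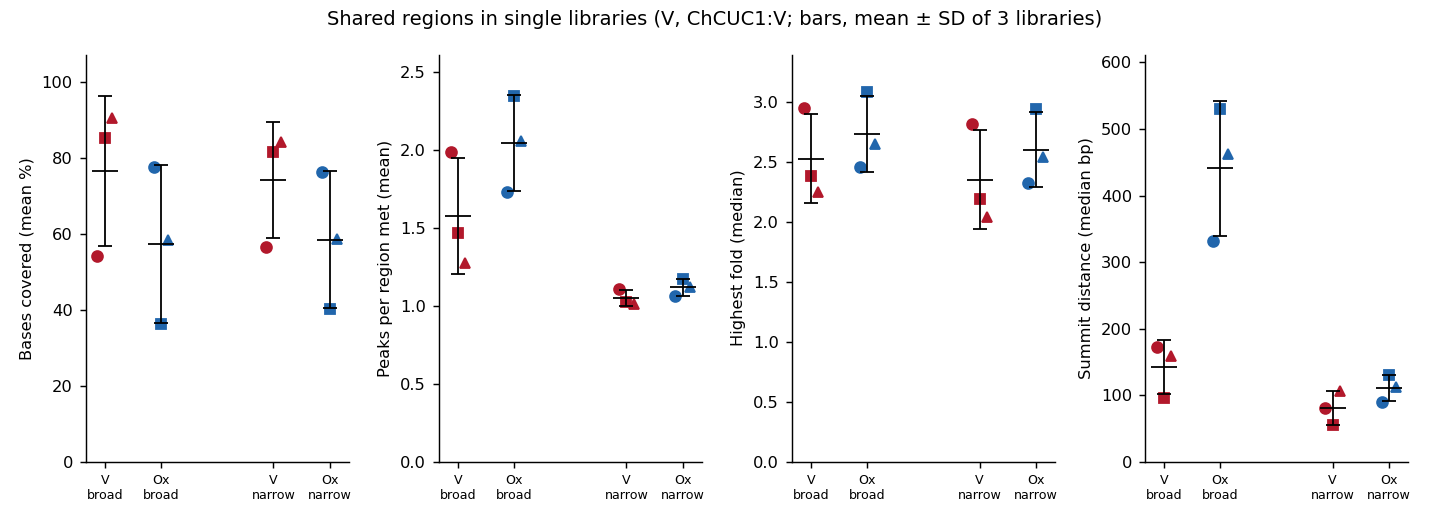
Values of the 6 reduced IP libraries in broad and narrow shared regions: bases covered (mean %), separate peaks per region met (mean), highest fold (median) and summit distance from the ChCUC1:V list (median bp). Points are libraries (circle, square and triangle for replicates 1, 2 and 3) and bars the mean ± SD of 3 libraries. In the broad regions the summit distance alone kept all ChCUC1:V libraries (96 to 173 bp) apart from all Ox libraries (331 to 530 bp), but its reference summit was that of the ChCUC1:V list, and with the Ox list as reference the difference had the opposite sign (127 bp) and the groups overlapped.

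Libraries were also compared in pairs. The regions and their bounds come from the ChCUC1:V list, which was itself kept for agreement of ranks between ChCUC1:V replicates, so likeness among these replicates is favoured by the choice. The best summits of a region were apart by a median of 295 to 396 bp for the 3 pairs of ChCUC1:V libraries, 434 to 678 bp for the 9 pairs between genotypes and 578 to 681.5 bp for the 3 pairs of Ox libraries. Ox libraries were therefore no closer to each other than to ChCUC1:V libraries. Summits were within 250 bp of each other in 42.2% of regions, on average, for ChCUC1:V pairs, 34.6% for mixed pairs and 32.1% for Ox pairs. Ranks of fold over the regions gave the same order, with Spearman's rho of 0.575 to 0.686 among ChCUC1:V libraries, 0.357 to 0.400 between genotypes and 0.340 to 0.368 among Ox libraries. Over the 1770 Ox peaks of the turned-round comparison, which had to meet a ChCUC1:V peak as well, summit distances were 324 to 419 bp for ChCUC1:V pairs, 454 to 652 bp for mixed pairs and 541.5 to 653.5 bp for Ox pairs, and rho was 0.593 to 0.697, 0.344 to 0.414 and 0.326 to 0.346 in the same order. This second set was chosen after seeing the data. The pairs share libraries and are not independent, and no test was made. In narrow shared regions of the ChCUC1:V list the summit distances were 126 to 151, 116 to 186 and 138 to 166 bp, so the 3 kinds of pair lay close together there.

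For single regions, fold was compared in the 2112 regions with a peak in all 6 libraries. All 3 ChCUC1:V folds were above all 3 Ox folds in 24 regions (1.14%), where the same held for 1.17% of all reproducible ChCUC1:V peaks with 6 values. The reverse held in 141 regions (6.68%), against 7.18% of all peaks. Both shares were near the background. The median log2 difference in fold, ChCUC1:V minus Ox, was −0.11 in the regions and −0.11 over all 11496 peaks, so the regions shared the shift of the whole list. Dividing each library's folds by its own median over all peaks turned the balance round, to 275 regions (13.02%, background 11.6%) with ChCUC1:V above and 124 (5.87%, background 6.38%) with Ox above. After this scaling 55.5% of the regions had a difference above 0, against 55.2% of all peaks.

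Covered bases gave a count in 1 direction. All 3 ChCUC1:V libraries covered more of the region than all 3 Ox libraries in 229 regions (10.8%, background 15.5%), and the reverse held in 0 (background 0.176%). The background includes peaks without an Ox counterpart, which the rule left out, so a share below it was favoured by the choice. With ChCUC1:V above, the share was 12.7% in narrow shared regions outside the stretches and 6.59% in broad shared regions inside them. In broad tagged-only peaks outside the stretches it was 19.9%. After each library's mean over all peaks was subtracted, the counts were 80 (3.78%, background 7.46%) and 196 (9.25%, background 8.24%). In the same 3 classes, ChCUC1:V was then above in 2.43, 1.21 and 10.2% and Ox in 11.9, 13.3 and 2.11%. The direction of the balance in covered bases and in fold thus depended on the scaling of the libraries, and neither scaling gave the regions a share far above the background.

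The 10 regions with the highest fold in the ChCUC1:V list were enriched in every library of both genotypes. Between the genotypes, folds as deposited overlapped in 9 of the 10. With each library divided by its own median over all peaks they overlapped in 1, Chr7:4441086-4446426, and ChCUC1:V was above in the other 9. These regions were picked on the ChCUC1:V list, which favours the ChCUC1:V libraries. Chr1:15111635-15119845, 8211 bp wide, had the highest ChCUC1:V-list fold, 4.33, and a single Ox peak of 3.76-fold covered 99.98% of it with its summit 36 bp away. Its highest fold was 4.83, 4.10 and 3.64 in ChCUC1:V replicates 1, 2 and 3 and 3.70, 4.30 and 3.60 in Ox replicates 1, 2 and 3. The groups overlapped, with Ox replicate 2 above 2 of the 3 ChCUC1:V libraries. All ChCUC1:V libraries and Ox replicate 1 had it as 1 unbroken peak, and it was split into 7 and 3 peaks in Ox replicates 2 and 3.

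Chr2:11951882-11962288, 10407 bp wide with a fold of 4.31, came next. Its values were 4.59, 4.47 and 4.05 in ChCUC1:V and 3.43, 4.48 and 3.99 in Ox, again with overlap. The Ox list had 1 peak there, of 3.05-fold, over 84.5% of the bases.

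Chr4:3909097-3915487, 6391 bp wide with a fold of 3.97, was the one region of the 10 without overlap in deposited folds. The ChCUC1:V libraries gave 4.88, 3.67 and 3.76 and the Ox libraries 3.55, 3.33 and 3.01, without overlap. A single Ox peak covered only 19.4% of it, but its summit was 86 bp from the ChCUC1:V summit. In the reduced Ox libraries, peaks covered 74.4, 50.5 and 64.2% of this region, more than the reproducible Ox list did.

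The groups overlapped in deposited folds in the other 7 of the 10. Chr8:5611519-5619824, 8306 bp wide, gave 4.45, 3.81 and 4.06 in ChCUC1:V and 3.13, 3.83 and 2.93 in Ox. Chr1:13518130-13530231, 12102 bp wide, gave 4.27, 3.83 and 3.53 against 2.73, 4.01 and 2.83. In both, before scaling, Ox replicate 2 alone reached into the ChCUC1:V range. The remaining 5 were Chr8:5970543-5975981, Chr7:4441086-4446426, Chr7:6211667-6213791, Chr6:5087865-5090375 and Chr5:6346216-6350952, with folds of 3.77 to 3.89 in the ChCUC1:V list and 2.46 to 3.36 in the Ox list. ChCUC1:V replicate 1 was the highest library in 9 of the 10 regions, the exception being Chr7:6211667-6213791 with 3.88 in Ox replicate 2.

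The widest regions were clustered in part. The first and second widest lay side by side near the start of Chr4, at 101303-117068 (15766 bp) and 121246-135691 (14446 bp), and the fourth, 480053-492347 (12295 bp), lay further along the same chromosome. The widest region had a fold of 2.82 and met 4 Ox peaks that covered 65.3% of it. Its library folds were 3.80, 3.50 and 2.78 in ChCUC1:V and 3.01, 3.81 and 3.30 in Ox, and the groups overlapped. It was broken into 10, 2 and 2 peaks in the ChCUC1:V libraries and 6, 14 and 8 in the Ox libraries, with all deposited peaks counted. Its neighbour had a fold of 3.12, the Ox list covered 98.0% of it, and the Ox and ChCUC1:V summits were at the same base. Its library folds, 3.58, 3.38 and 3.56 in ChCUC1:V and 2.87, 3.29 and 3.44 in Ox, overlapped as well. After scaling by library medians ChCUC1:V was above in the widest region and in the fifth widest, and the other 3 still overlapped. The third widest, Chr5:8431701-8444697 (12997 bp, 3.15-fold), had 8 other regions within 50 kb, and its single Ox peak covered 78.2% with a summit 1809 bp away. The fifth was Chr1:13518130-13530231, given above.

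The largest differences in fold went in both directions. Chr2:88434-96312, 7879 bp wide, had the highest log2 difference, 0.46. Its folds were 4.80, 3.35 and 2.71 in ChCUC1:V and 2.06, 2.97 and 2.72 in Ox, so ChCUC1:V replicate 3 was level with Ox replicate 3 and the groups overlapped. The Ox list covered 45.2% of this region, with its nearest summit 2683 bp away.

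In the next 4 regions by log2 difference the groups did not overlap. Chr2:3602573-3612667, 10095 bp wide, gave 4.48, 3.38 and 3.73 in ChCUC1:V and 2.68, 3.17 and 2.62 in Ox, a log2 difference of 0.45. Chr7:21589-27871, 6283 bp wide and close to the start of the chromosome, gave 3.48, 3.10 and 3.15 against 2.36, 2.63 and 2.32, a difference of 0.41. Chr3:17340974-17344979 (3.84, 3.32 and 3.15 against 2.55, 2.76 and 2.46) and Chr2:13754900-13757053 (3.63, 3.17 and 2.92 against 2.13, 2.45 and 2.89) followed with 0.40 and 0.39. In Chr7:21589-27871 the Ox list covered 46.8% and its nearest summit was 2328 bp away, whereas in the other 3 an Ox summit lay within 295 bp. These regions were picked as the extremes of 2112, so their differences carry no test.

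At the other extreme, Chr5:5739352-5742600, 3249 bp wide, had the lowest log2 difference, −0.63. Its folds were 2.29, 1.72 and 1.87 in ChCUC1:V and 2.50, 3.16 and 3.46 in Ox, and every Ox library was the higher. Chr7:3121439-3124319, with 1.88, 2.03 and 1.61 against 2.22, 3.43 and 2.84, and Chr8:4060363-4063934, with 2.80, 2.23 and 1.75 against 2.91, 4.02 and 3.26, had −0.61 and −0.60. Both lacked overlap between the genotypes too. Chr5:3967929-3971862 (−0.54), with 2.57, 2.07 and 1.87 against 2.90, 3.13 and 3.39, was likewise without overlap, and Chr3:11436430-11440018 (−0.54), with 2.58, 1.86 and 1.91 against 2.53, 3.12 and 3.59, overlapped. All 5 had ChCUC1:V-list folds below the median of the regions, from 1.67 to 2.31, although the rule had taken them from the ChCUC1:V list. After scaling by library medians the differences of these 5 were −0.50 to −0.41. Those of the 5 at the upper end were 0.52 to 0.60, and the genotypes were apart in all 10. The scaling shifts the log2 difference of every region by the same amount, so differences this large kept their direction by construction. The 10 were picked on the same folds, so being apart was favoured by the choice. Over all peaks the scaled shares were 11.6% with ChCUC1:V above and 6.38% with Ox above.

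**Figure D5:**
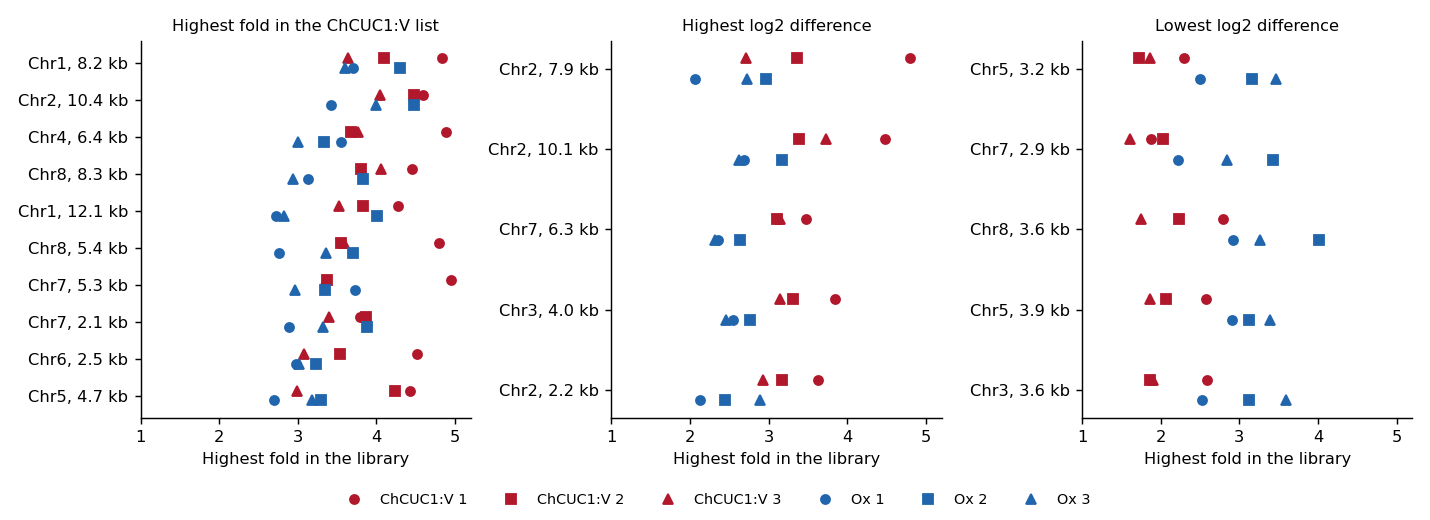
Highest fold of each IP library (horizontal axis, linear scale, all deposited peaks) in the 10 regions with the highest fold in the ChCUC1:V list, the 5 with the highest and the 5 with the lowest log2 difference, named by chromosome and width (vertical axis). ChCUC1:V libraries are red, Ox libraries blue, with circle, square and triangle for replicates 1, 2 and 3. In these deposited folds the genotypes overlapped in 9 of the 10 most enriched regions and were apart in 4 of the 5 regions at each extreme. After division by library medians they overlapped in 1 of the 10 and were apart in 5 of 5 at each extreme. The 10 were picked on the ChCUC1:V list and the extremes on these same folds, so being apart was favoured by the choice. Over all peaks ChCUC1:V was above in 1.17% as deposited and 11.6% after division, and Ox in 7.18% and 6.38%.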

How the data were processed

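The 6 IP libraries (3 ChCUC1:V, 3 Ox) were grouped by their titles. Bowtie, MACS2 and bedtools stand in the submitters' processing notes with no version. No source used here gives the genome build, so coordinates are those of the deposited lists, counted from 1. Per the names of the deposited lists, the authors removed duplicates and called peaks of each IP library over pooled controls with a loose p threshold, 0.01. The authors' fold is the ratio of the IP to the pooled control at the summit, and −log10 p is likewise the authors' value for each peak. The score deposited by the authors in the reproducible lists rescales the IDR so that 540 corresponds to 0.05. These lists are called case and control. The case list holds the intervals of the study's own ChCUC1 ChIP-seq table, the control list none of them, and the control list was taken as Ox for want of another group. The sources used here do not say how replicates were joined. The 6 input libraries have no list analysed here. No genome of the files' build was at hand, so genes, sequences and motifs are not analysed here.

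Peaks overlapped when sharing at least 1 bp. The stretches left out were Chr1 16 to 19, Chr2 6 to 9.5, Chr3 13.5 to 17, Chr4 8 to 10, Chr5 9.5 to 13.5, Chr6 9.5 to 12.5, Chr7 6.5 to 10.5 and Chr8 9.5 to 10.5 Mb, and lengths ran to the last peak of a chromosome. Library values used the 21353 peaks with the highest −log10 p, and folds of single regions and counts of separate peaks in named regions used all deposited peaks. Library means were compared by a two-sided exact permutation test (Python 3.11.15, numpy 2.4.6, pandas 2.3.3, scipy 1.17.1). The overlap code was tested on simulated data. Nothing in the labels says that replicates were grown separately, so p-values measure only the spread between these libraries. Depth is unknown, and Wilson intervals (95%) cover counting error only. The members and lists were chosen with earlier results of these data known. Named regions were the 10 with the highest fold, the 5 widest, the 3 on either side of 2000 bp, the 5 highest and 5 lowest by log2 difference, the 3 with most Ox peaks and the 1 with most others within 50 kb. Alternatives were other list lengths, an IDR of 0.01, other widths and overlaps, the Ox list as reference, each replicate left out, the shared run, a replicate block, scaled values and equal covered bases, the last chosen after seeing the data. The Ox list as reference for pairs of libraries was also chosen then.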

Additional observations from a re-analysis of the deposited data

How the results depend on the processing

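Of 105 alternative values for the 7 differences between genotypes, 101 kept their direction, and none of these tests could pass below 0.1 with 3 libraries each. The 101 include a replicate block for each of the 7 differences, which could not change direction by construction. The exceptions were the share of regions met, which went to −14.8 points with equal covered bases (chosen after seeing the data) and to −0.142 without Ox replicate 2 (range 2.81 to −0.142 over single libraries left out), the summit distance, 127 bp with the Ox list as reference, and the difference in fold excess, −0.0185 with equal covered bases. With equal covered bases fewer peaks were left in the libraries of wide peaks. Without single libraries the difference in bases covered ranged from 8.56 to 30.4 points, in separate peaks from −0.674 to −0.317, in fold from −0.419 to −0.0312 and in summit distance from −353 to −254 bp. The excess over narrow regions ranged from 1.49 to 5.98 points in bases covered and from 0.0274 to 0.0675 in fold. Same-numbered libraries did not deviate together (correlations −0.106, −0.0398 and −0.0935), and the other pairs between genotypes had −0.0179 to 0.0864. Correlations this close for both kinds of pair cannot settle whether same-numbered replicates were grown or handled together. With the replicate block the differences were the same by construction, 19.2 points covered (exact sign-flip p = 0.5) and −298 bp for summits (p = 0.25, the smallest possible).

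The number of regions was 1113 with an IDR of 0.01 asked of both lists, 1213 over 3000 bp wide and 1200 with summits within 250 bp. The next counts are of regions whose genotypes did not overlap, with the share over all ChCUC1:V peaks in brackets. Those peaks were held to the same setting except for width and an Ox counterpart. The brackets beside regions over 4000 bp are thus of peaks of every width, so these pairs of shares compare unlike sets. All ChCUC1:V folds were above in 9 of 732 over 4000 bp (1.23%; 1.17%) and 275 of 2112 after scaling (13.02%; 11.6%). All Ox folds were above in 69 of 1113 at an IDR of 0.01 (6.20%; 5.30%), 26 of 732 over 4000 bp (3.55%; 7.18%) and 85 of 1862 with reduced lists (4.56%; 4.64%). In bases covered, ChCUC1:V was above in 134 of 1113 at an IDR of 0.01 (12.04%; 17.9%), 98 of 732 over 4000 bp (13.4%; 15.5%) and 80 of 2118 after scaling (3.78%; 7.46%). Ox was above in 196 of 2118 after scaling (9.25%; 8.24%) and 2 of 2118 with all peaks (0.0944%; 0.255%). Fewer regions enter at the stricter IDR, at the larger width and with reduced lists, and other causes were not tested.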
